A study of Macaca mulatta with 56 samples.

Results

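The proteasome genes were taken as all rows of the deposited table whose macaque gene symbol begins with PSMA, PSMB, PSMC, PSMD, PSME, PSMF or PSMG followed by a digit. This gave 48 genes of the 17807 identifiers in the table, each on 1 identifier, and all 48 passed the filter on low values. They comprised 7 genes of the outer (alpha) rings and 7 of the inner (beta) rings of the 20S core, 3 interferon-inducible beta subunits, 6 ATPases and 11 other subunits of the 19S regulatory particle, 4 activators, the regulator PSMF1, and 4 plus 3 chaperones that assemble the core and the 19S particle. The other 2, PSMC3IP and PSME3IP1, match the name pattern but encode no proteasome subunit.

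The proteasome is the main protease of the cytosol and nucleus and degrades proteins tagged with ubiquitin. Its barrel-shaped 20S core holds the cutting sites on the inner face of the beta rings, and the alpha rings gate the entrance. The 19S particle caps the core, binds ubiquitin chains, removes them and unfolds the substrate with a ring of ATPases. Interferon exchanges the 3 catalytic beta subunits for inducible ones and raises the PSME1 and PSME2 cap, which favours peptides for antigen presentation. In neurons the proteasome turns over synaptic proteins, and its decline is a known feature of brain ageing.

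The libraries came from 14 old female rhesus macaques aged 19.4 to 23.2 years, and each gave 4 libraries, from the amygdala, the hippocampus, the prefrontal cortex and the occipital cortex. Every animal ate a Western-style diet (fat supplied 36% of its calories and sugars 18.5%) and lost its ovaries and uterus about 6 weeks after that diet began, so no group kept its ovaries or ate regular chow. Capsules that released estradiol kept serum estradiol in 7 animals (HT) at 82.1 pg/mL on average, and the other 7 (OvH) carried empty capsules and had 6.6 pg/mL. The series text gives the study as 30 months but averages serum estradiol over 32 months. RNA was made from pulverized tissue of each region, so fewer cells of a type and less RNA per cell cannot be told apart in these bulk values.

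Each value below is an upper-quartile normalized read count, and each of the 8 groups of region and treatment has n = 7 animals. Depth ranged from 34.63 to 93.34 megareads per library. The identifiers of the amygdala columns do not all hold the same transcripts as those of the other columns: PSMB7, PSMD7 and PSMD12 are listed at 0 in the other 3 regions and at 4662 or more in every amygdala library. A gene was therefore used outside the amygdala only where its mean log2 level over the other 3 regions lay within 2 of that in amygdala. This kept 42 of 48 genes and dropped PSMB7, PSMC1, PSMD1, PSMD7, PSMD8 and PSMD12. Just inside the limit were PSMC3IP at a difference of 1.49 and PSMC5 at -1.49, and the nearest outside was PSMD1 at -6.97. The rule held for 75.93% of all identifiers, and for 33.61% when the other regions were moved by 50 rows, so a kept gene can still carry a wrong name outside the amygdala. Neuronal markers were high in all 4 regions, with none of the 11 at 0 in any library. The hippocampus libraries of animals 33 and 40 held much choroid plexus RNA, and the occipital library of animal 40 stood apart in the genes described here, so results that rest on them are also given without them.

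In amygdala, 6 proteasome genes were higher in HT than in OvH and 1 was lower. The 6 were the alpha-ring genes PSMA2, PSMA3 and PSMA5, the beta-ring gene PSMB3, and both genes of the interferon-inducible cap, PSME1 and PSME2. The gene that was lower, PSMD3, encodes a subunit of the 19S lid. Differences ran from 1.03 (log2, PSMA5) to -0.59 (PSMD3). These 6 are 12.5% of the 48 genes, against 6.16% of 16129 identifiers called higher in this comparison, and the 1 lower is 2.08%, against 0.732% called lower. The tests were limma with the Benjamini-Hochberg adjustment over all identifiers and a threshold of 0.05. The median difference over the 48 genes was 0.23, against 0.01 over all identifiers, and 20 of 48 (41.67%) had an unadjusted p under 0.05, against 21.54% of all identifiers.

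**Figure D1:**
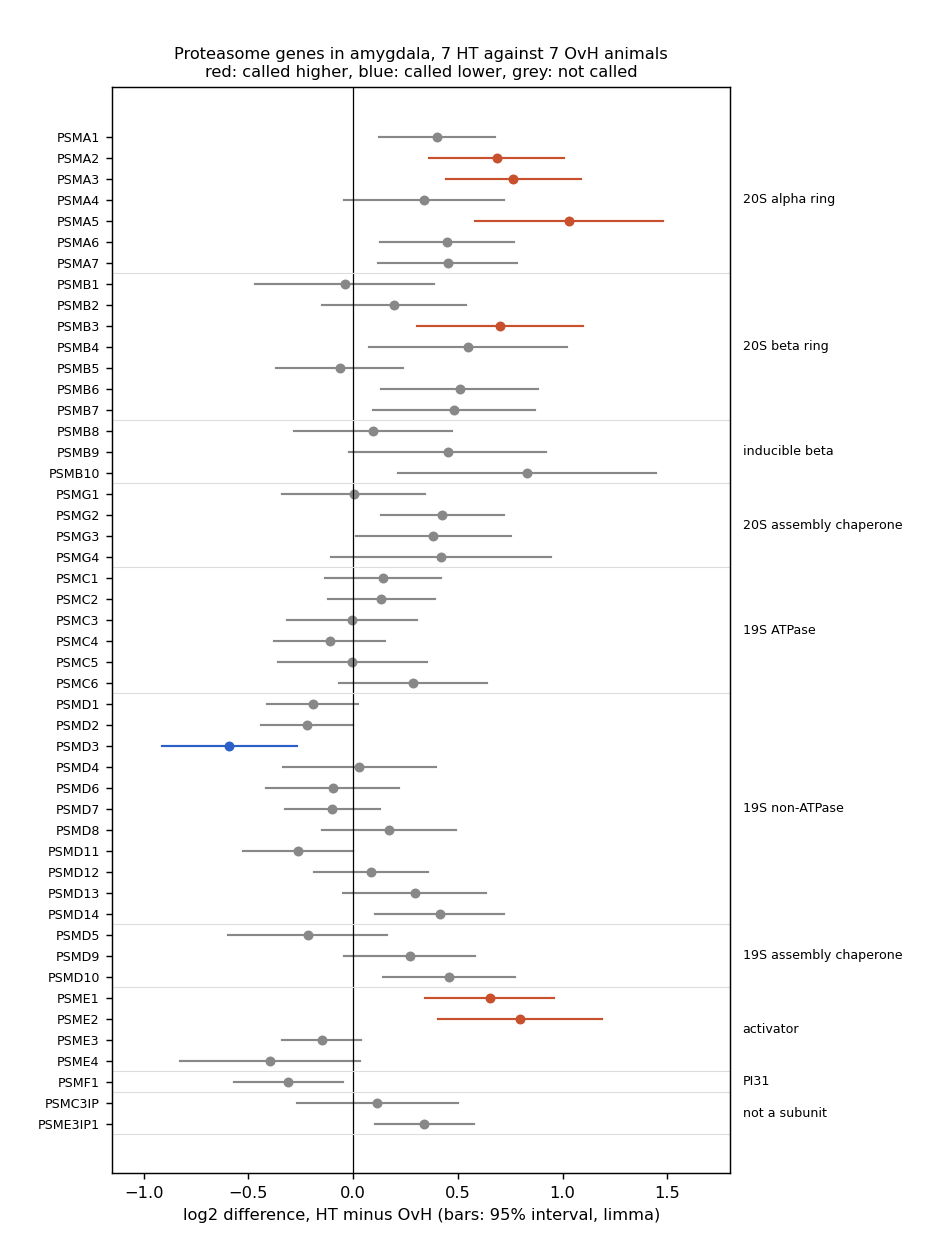
Log2 difference between HT and OvH in amygdala for the 48 proteasome genes (horizontal axis), with 95% intervals from limma and n = 7 animals per group, grouped by role. All 7 alpha-ring genes lie above 0, whereas the 19S subunits lie on both sides of it.

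Of the alpha-ring genes 3 of 7 were higher, and the differences of all 7 lay above 0 with a median of 0.45. PSMA5 ranged from 8202 to 16263 in OvH (median 12212) and from 12403 to 33679 in HT (median 26720). In this gene 6 of 7 HT animals lay above every OvH animal, and the lowest, animal 39, lay within the OvH range. Its log2 difference was 1.03 ± 0.21 (SE, limma, adjusted p = 0.00899), a 2.04-fold ratio. PSMA3 ranged from 5355 to 9311 in OvH (median 8711) and from 9002 to 16199 in HT (median 13870). Again 6 of 7 HT animals exceeded all OvH animals, and the difference was 0.76 ± 0.15 (limma, adjusted p = 0.00836). PSMA2 ranged from 8166 to 13333 in OvH (median 11156) and from 11696 to 22590 in HT (median 17858), and its difference was 0.68 ± 0.15 (limma, adjusted p = 0.0135). In each of these 3 genes animal 39 was the only HT animal within the OvH range. The other 4 alpha-ring genes did not pass: PSMA1 at 0.40, PSMA6 at 0.45 and PSMA7 at 0.45 had adjusted p-values of 0.0811, 0.087 and 0.0982 (limma), and PSMA4 at 0.34 had 0.299.

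The beta ring was more mixed, with 5 of 7 genes above 0 and 1 called. PSMB3, a non-catalytic subunit, ranged from 5735 to 12657 in OvH (median 10165) and from 9079 to 18470 in HT (median 15735). Its difference was 0.70 ± 0.19 (limma, adjusted p = 0.0323), and 6 of 7 HT animals lay above all OvH animals. PSMB5, PSMB6 and PSMB7 carry the cutting sites. PSMB6 (0.51, adjusted p = 0.0992) and PSMB7 (0.48, adjusted p = 0.134) did not pass in limma, and PSMB5 differed by -0.06 (95% interval -0.37 to 0.24). PSMB4, which has the largest difference of the ring after PSMB3, gave 0.55 (adjusted p = 0.162, limma). PSMB1 (-0.04) was near 0. PSMB2 (0.20) was not called, with all 7 HT animals above its OvH median and 1 OvH animal above every HT animal.

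**Figure D2:**
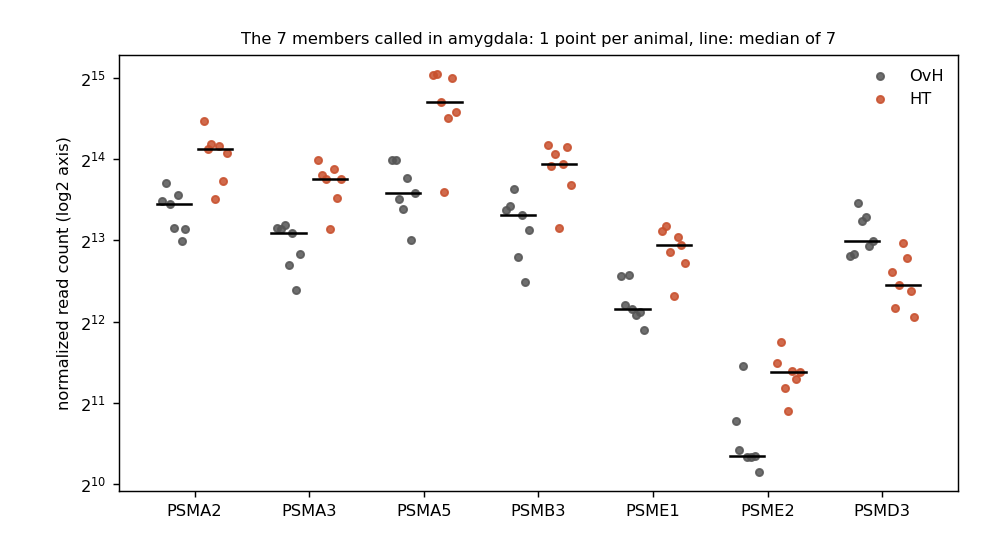
Normalized read counts (log2 axis) of the 7 genes called in amygdala, with 1 point per animal and a line at the median of each group of 7. For PSMA2, PSMA3, PSMA5, PSMB3 and PSME1, 6 of 7 HT animals lie above every OvH animal, and for PSMD3 6 of 7 HT animals lie below every OvH animal.

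Both genes of the interferon-inducible cap were higher in HT. PSME1, 1 of the 2 subunits of the cap, ranged from 3819 to 6103 in OvH (median 4573) and from 5091 to 9254 in HT (median 7887). Its difference was 0.65 ± 0.15 (limma, adjusted p = 0.0138). The partner subunit PSME2 ranged from 1141 to 2806 in OvH (median 1304) and from 1915 to 3439 in HT (median 2673), with a difference of 0.80 ± 0.19 (limma, adjusted p = 0.0169). In PSME2, 6 of 7 OvH animals lay below every HT animal, and OvH animal 32 lay within the HT range. PSMB10, an inducible subunit, had a larger point estimate than PSME2 but a wide spread: 2144.5 to 9108.5 in OvH (median 4243) and 3970 to 11105 in HT (median 9342), a difference of 0.83 with a 95% interval of 0.22 to 1.45 (limma, adjusted p = 0.101). PSMB9 differed by 0.45 (interval -0.02 to 0.92, adjusted p = 0.254, limma) and PSMB8 by 0.09 (interval -0.28 to 0.47, adjusted p = 0.815, limma). Values of PSMB10 and PSMB9 in OvH animal 32 lay far above those of the other OvH animals. Without that animal PSMB10 was called at 1.02 (adjusted p = 0.0147) and PSMB9 at 0.63 (adjusted p = 0.0203, limma). Taking out the highest OvH value must raise the difference, so these calls are no separate support. In that fit 14.6% of all identifiers were called, against 6.89% with all animals. PSMB10 was also called without HT animal 39 (limma, adjusted p = 0.0385), in a fit that called 9.77% of all identifiers. Whether the cap and the catalytic subunits differ in their response was not tested. The nuclear activators lay below 0, PSME4 at -0.40 and PSME3 at -0.15, with adjusted p-values of 0.273 and 0.362 (limma).

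Of the 17 genes of the 19S particle 8 lay above 0 and 9 below, and 1 was called. Its 6 ATPases, which thread the substrate into the core, had 0 calls and a median of 0.07, from -0.11 (PSMC4) to 0.29 (PSMC6). Over the 11 other subunits the median was -0.10, with 1 call. PSMD3 ranged from 7142 to 11216 in OvH (median 8171) and from 4251 to 7974 in HT (median 5577). In 6 of 7 HT animals it lay below every OvH animal, and the exception was again animal 39. The difference was -0.59 ± 0.15 (limma, adjusted p = 0.0276). PSMD14, the lid enzyme that cuts off ubiquitin chains, went the other way at 0.41 (adjusted p = 0.107, limma), as did the lid subunit PSMD13 at 0.29 (adjusted p = 0.312). The base scaffold PSMD2 (-0.22) and the lid subunit PSMD11 (-0.26) had adjusted p-values of 0.234 in limma. PSMF1, described as an inhibitor of the core in vitro, differed by -0.31 (adjusted p = 0.157, limma), with 4 of 7 HT animals below every OvH animal.

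Among the assembly chaperones 0 of 7 passed. The 4 core chaperones lay above 0, PSMG2 with 0.43 (adjusted p = 0.0773) and PSMG1 with 0.00 (adjusted p = 0.996). Of the 19S chaperones, PSMD10 had 0.46 (adjusted p = 0.0773, limma) and PSMD5 had -0.22. PSME3IP1, a partner of PSME3 and no subunit, had 0.34 (adjusted p = 0.0774), and PSMC3IP, a cofactor of meiotic recombination, had 0.12. The spans of PSMB3, PSME1, PSMB9 and PSMB10 each overlap a protein-coding neighbour in the RefSeq annotation of another assembly (T2T-MMU8v2.0). The neighbours are PIP4K2B for PSMB3, EMC9 for PSME1, TAP1 for PSMB9 and CTRL for PSMB10. They are PRORP for PSMA6, HTR2B for PSMD1 and LOC114673711 for PSMG2, and PSMC3IP overlaps several, among them CNTNAP1 and EZH1. The libraries were strand-specific but the strand setting of the counting is not given in the sources used here. Shared reads therefore cannot be set apart for these 8 genes.

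Among genes that work with the proteasome, calls in amygdala went both ways. Over all identifiers 6.16% were called higher and 0.732% lower. Of 39 identifiers of ubiquitin and proteasome partners, 5 were higher and 1 lower, with a median of -0.08. POMP, the maturation factor that closes the new core, differed by 0.49 (adjusted p = 0.0474), and the cullin ligase parts RBX1 by 0.91 (adjusted p = 0.00889) and SKP1 by 0.50 (adjusted p = 0.0415). RPS27A, which encodes ubiquitin fused to a ribosomal protein, stood on 2 identifiers, with 1.81 and 1.59 (both adjusted p = 0.00674, limma). UBE3C, a ubiquitin ligase bound to the proteasome, was lower by -0.41 (adjusted p = 0.0405). NFE2L1, the transcription factor known to raise all subunits together, differed by -0.33 (adjusted p = 0.162). Of 17 identifiers of interferon and antigen presentation genes, 3 were higher and 2 lower. Most leaned lower in HT, with 5 differences above 0, 12 below 0 and a median of -0.21. B2M, the light chain of class I molecules, differed by 0.85 (adjusted p = 0.0199), IFNGR1 by 0.52 (adjusted p = 0.0391) and IFNGR2 by 0.42 (adjusted p = 0.0485). The interferon-stimulated genes IFI44L (-0.94, adjusted p = 0.0364) and MX1 (-0.70, adjusted p = 0.0405) were lower.

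Ribosomal protein transcripts differed between the same groups. The mean log2 level of 73 of their identifiers ran from 14.12 to 15.06 in OvH amygdala and from 14.74 to 16.38 in HT amygdala, and 63 of the 73 were called higher, with a median difference of 1.27. Animal 39, the HT animal that joined the OvH range in the genes above, had the 14.74. Of 13 myelin markers 3 were higher (median 0.53), and their summed level ran from 355090 to 1255200 in OvH and from 794680 to 1620000 in HT. Of 11 pan-neuronal markers 1 was lower (median -0.32), and none of either list was at 0 in any library. With the ribosomal mean as a covariate 0 of 48 proteasome genes were called (0% of all identifiers) and their median difference was -0.03. The difference was then 0.10 for PSMA5, 0.20 for PSMA3 and -0.29 for PSMD3. With the myelin mean as a covariate 0 of 48 were called, against 0.955% of all identifiers, and their median was 0.11. The 7 genes called without it kept differences close to those above, at 1.01 for PSMA5, 0.70 for PSMA3, 0.67 for PSMA2, 0.64 for PSME2, 0.61 for PSME1, 0.60 for PSMB3 and -0.73 for PSMD3, with adjusted p-values of 0.0564 to 0.209 (limma). The covariates differ between the treatment groups, and the part of ribosomal or myelin transcripts in the result was not tested.

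Scaling and single animals moved the count. The normalized total was 71.12 ± 4.46 megareads (SD, n = 7) in HT and 61.36 ± 4.08 megareads in OvH, and scaling libraries to equal totals moved the median of all identifiers to -0.20. On that scale 5 genes were higher (PSMA2, PSMA3, PSMA5, PSME1 and PSME2) and 6 lower (PSMD1, PSMD2, PSMD3, PSMD11, PSME3 and PSMF1), and the median over the 48 was 0.02. These are 10.4% and 12.5% of the 48 genes, against 3.84% and 6.31% of all identifiers on that scale. PSMB3 was then not called (limma, adjusted p = 0.0521), nor was it by edgeR (adjusted p = 0.0568). Without OvH animal 32 there were 14 higher (29.2%, against 10.1% of all identifiers) and 2 lower (4.17%, against 4.54%). Without HT animal 39 there were 15 higher (31.2%, against 8.38%) and 1 lower (2.08%, against 1.4%). PSMA2, PSMA3, PSMA5, PSME1 and PSME2 were called in 14 of 14 fits that left out 1 animal. PSMD3 was lost without animal 33, 34, 37, 38, 42 or 43 (adjusted p up to 0.0704), and PSMB3 without animal 33, 35, 36, 37, 38, 40, 41 or 43 (up to 0.0837).

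**Figure D3:**
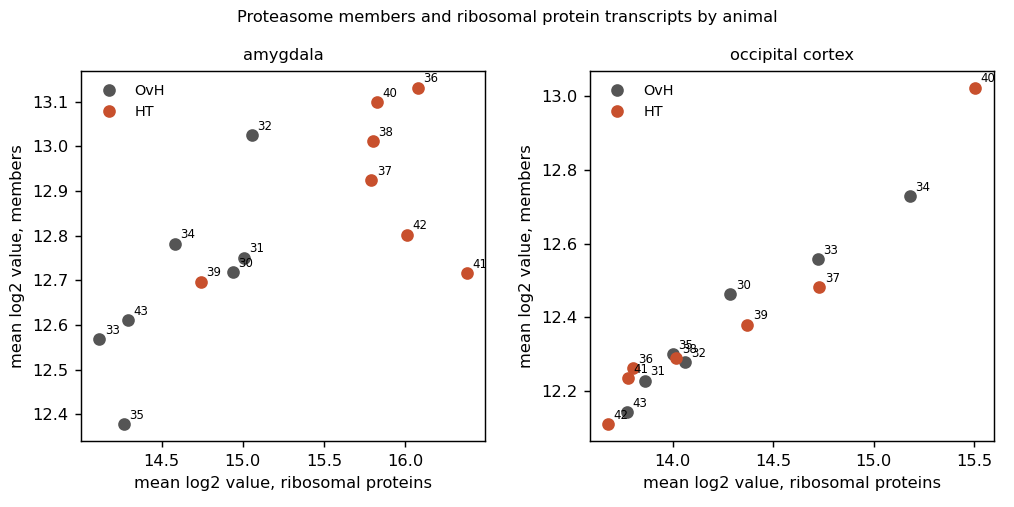
Mean log2 level of the proteasome genes (vertical axis) against that of ribosomal protein transcripts (horizontal axis) in amygdala and occipital cortex, with 1 point per animal labelled by its number. In amygdala 6 of 7 HT animals lie to the right of all OvH animals, and in occipital cortex animal 40 (HT) is highest on both axes with animal 34 (OvH) next.

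In each region the library with the highest ribosomal mean was looked up, a choice made after the values were seen. Some of the genes called in amygdala were at the end of their range there, and PSME2 was not in any region, with rank 4 of 14 in hippocampus, 2 in occipital cortex, 3 in prefrontal cortex and 6 in amygdala. In hippocampus the library was that of OvH animal 43. There PSMA5 at 17133 (next 13602), PSMA3 at 6680 (next 5649) and PSMB3 at 10893 (next 10884) were the highest of 14. PSMA2 and PSME1 were at rank 2. PSMD3 at 5102 was the lowest of 14 there (next 7101), as was PSMF1, a gene not called in amygdala, at 5237. In occipital cortex it was HT animal 40, where PSMA2, PSMA3, PSMA5, PSMB3 and PSME1 were the highest of 14, and PSMD3 at 8895 and PSMF1 at 4413 the lowest. In prefrontal cortex it was OvH animal 35, with PSMA2, PSMA5 and PSME1 the highest of 14. PSMA3 was at rank 3, PSMB3 at rank 11, PSMF1 at rank 12 and PSMD3 at rank 13. In amygdala it was HT animal 41, with PSMB3 at rank 2, PSMA5 at rank 3, PSME1 at rank 4, and PSMA2 and PSMA3 at rank 6. PSMD3 and PSMF1 were at rank 12. How many of all identifiers stood at the end of their range in these libraries is not given here. The part of ribosomal transcripts in these values was not tested. The 4 occipital libraries with the highest ribosomal mean were also the 4 with the highest mean over the proteasome genes, and amygdala, hippocampus and prefrontal cortex shared 2 of 4 each. For the mean over the 6 genes called higher in amygdala, 4 of 4 were shared in hippocampus and occipital cortex, 3 of 4 in prefrontal cortex and 2 of 4 in amygdala.

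Outside the amygdala no proteasome gene differed by treatment past the threshold. In the hippocampus and in either cortex 0 of 42 genes were called by limma, by edgeR's quasi-likelihood test or by DESeq2, against 0% of all identifiers in limma. Unadjusted p-values under 0.05 numbered 2 in prefrontal cortex, 1 in occipital cortex and 0 in hippocampus in limma, and 3, 1 and 0 in DESeq2. In limma these are 4.76%, 2.38% and 0% of the 42 genes, against 3.7%, 1.88% and 2.05% of all identifiers. DESeq2 gave 757 of 16286, 440 of 16138 and 603 of 16317 over all identifiers in that order. The 2 in prefrontal cortex were PSMA4 (0.36) and PSMC6 (0.27), and the 1 in occipital cortex was PSMC3IP (-0.48). On the mean of the 3 regions 0 of 42 were called (0% of all identifiers), and the median was 0.00. There 1 had an unadjusted p under 0.05 in limma (2.38%, against 3.16% of all identifiers). For PSMA5, OvH and HT medians were 8468 and 7185 in hippocampus, 7432 and 7416 in prefrontal cortex, and 7283 and 7394 in occipital cortex. The medians of PSMA5 thus lay within the range of the other group in each region. On the mean of the 3 regions its difference was -0.07, with a 95% interval of -0.35 to 0.21. The interval was -0.30 to 0.31 for PSMA3, -0.35 to 0.20 for PSMB3, -0.40 to 0.16 for PSME1, -0.34 to 0.37 for PSME2 and -0.21 to 0.16 for PSMD3.

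**Figure D4:**
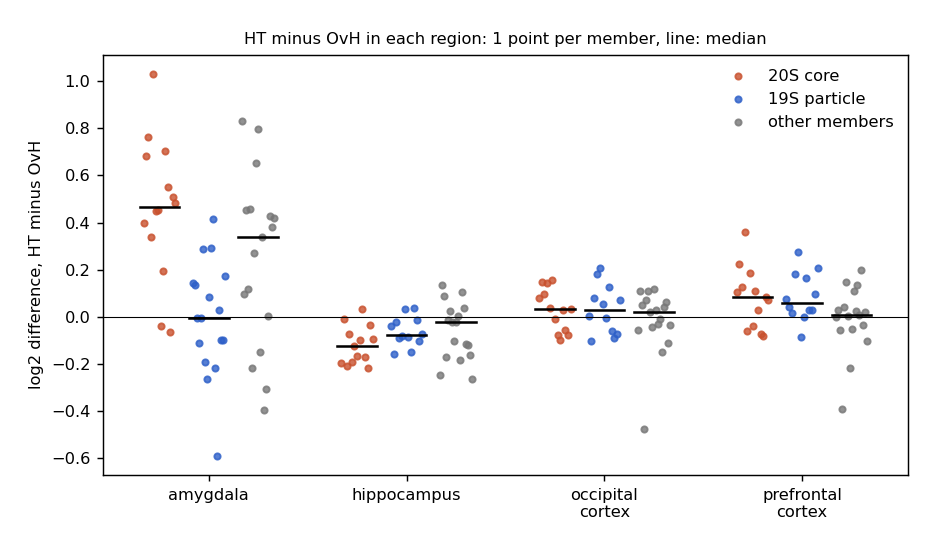
Log2 difference between HT and OvH (vertical axis) in each region, with 1 point per proteasome gene and a line at the median, split into the 20S core, the 19S particle and the others. The 20S genes lie mostly above 0 in amygdala (median 0.47), and their medians elsewhere run from -0.12 to 0.08.

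In the first fit here, with all libraries on their deposited scale, the treatment effect in amygdala was not shown to differ from that in the other regions. It was tested per animal as the amygdala level minus the mean of the other 3 regions, over 13520 identifiers with matching levels, and 0 of 42 genes were called in limma (0% of all identifiers). In 22 of 42 the unadjusted p was under 0.05 (52.38%, against 22.81% of all identifiers). PSMA5 was 1.10 ± 0.28, PSMA3 0.76 ± 0.19, PSME1 0.77 ± 0.20 and PSMD3 -0.57 ± 0.14, and these 4 shared an adjusted p of 0.0609. Without the occipital library of animal 40, whose other 2 regions then stood for it, 8 of 42 genes were called (16.7% higher and 2.38% lower, against 4.39% and 0.643% of all identifiers in that fit). PSMA2, PSMA3, PSMA5, PSMB3, PSME1, PSME2 and PSMG2 were higher and PSMD3 lower, with adjusted p-values of 0.0288 to 0.0489. Leaving out 1 animal gave 0 calls for 33, 34, 35, 36, 37, 38, 41, 42 or 43, 8 without animal 30, 7 without 31, 5 without 32, 16 without 39 and 6 without 40. In these last 5 fits 11.9% to 38.1% of the 42 genes were called, against 5.38% to 8.57% of all identifiers. On equal totals PSMD3 and PSMF1 were called, both lower (4.76%, against 2.85% of all identifiers called lower). All 56 ribosomal protein identifiers lay above 0 in the same comparison, with a median of 1.35, and 0 of them were called.

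Proteasome transcripts were higher in occipital than in prefrontal cortex for most genes. Compared within animals, 26 of 42 genes (61.9%) were higher in occipital than in prefrontal cortex and 0 lower, against 19.7% of identifiers called higher and 28.2% called lower. The median difference was 0.31, against -0.06 over all identifiers. Of the 42 genes, 33 had their highest mean level in occipital cortex, 7 in hippocampus and 2 in the prefrontal region, and 35 had their lowest in prefrontal cortex. Of 56 ribosomal protein identifiers 0 were higher and 2 lower, with a median of -0.03. Pan-neuronal markers gave 3 higher and 1 lower of 11 (median 0.14), and myelin markers 3 higher and 0 lower of 9 (median 0.39). Their part in the result was not tested.

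The largest steps were in the inducible pair and the 19S particle. PSMB8 ranged from 887 to 1601 in prefrontal cortex (median 1194) and from 1559 to 3002 in occipital cortex (median 1961). The ranges overlapped slightly, all 14 animals had more in occipital cortex, and the difference was 0.75 ± 0.10 (SE, limma with the animal as a block, adjusted p = 1.78e-07). PSMB9, encoded beside it, ranged from 271 to 420 in prefrontal cortex (median 322) and from 388 to 1073 in occipital cortex (median 492), with a difference of 0.73 ± 0.13 (limma, adjusted p = 2.7e-05) and 14 of 14 animals in that direction. PSMB10, the third inducible subunit, did not pass, at 0.09 (95% interval -0.32 to 0.50). The ATPase PSMC4 ranged from 7509 to 11163 in prefrontal cortex (median 9225) and from 12124 to 17905 in occipital cortex (median 15531), so its 2 groups of 14 did not overlap. Its difference was 0.71 ± 0.07 (limma, adjusted p = 1.68e-09).

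By role, 6 of 6 measured beta-ring genes, 5 of 7 alpha-ring genes, 3 of 5 ATPases and 6 of 7 other 19S subunits were higher in occipital than in prefrontal cortex. PSMD13 and PSMD3 both gave 0.62, PSMD14 0.58, PSMC2 0.51 and PSMB3 0.50, and in PSMD13, PSMD3, PSMD14 and PSMC2 all 14 animals shared the direction. Of the chaperones, PSMG2 (0.43), PSMD5 (0.36), PSMG3 (0.31) and PSMD9 (0.28) passed. None of the 4 activators did: PSME1 was at 0.02, with a 95% interval of -0.25 to 0.29, and PSME4 at -0.12. PSMF1 (-0.13) was the only gene with a proteasome role, other than PSME4, below 0. PSMA4 was lost without the occipital library of animal 40 (adjusted p = 0.0714) and on equal totals (0.0516), and PSMG3 with no block (0.0524).

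**Figure D5:**
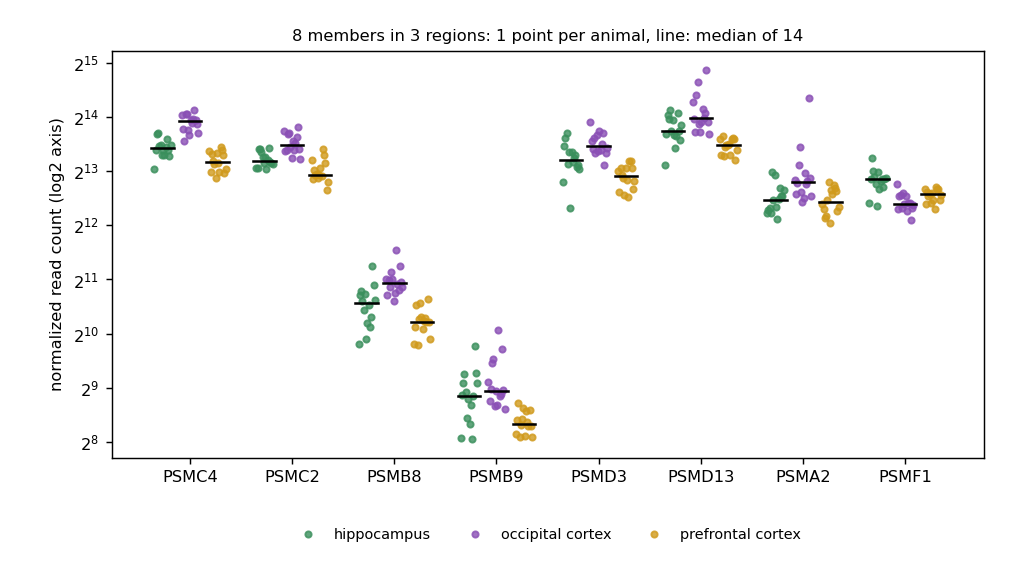
Normalized read counts (log2 axis) of 8 proteasome genes in hippocampus, occipital cortex and prefrontal cortex, with 1 point per animal and a line at the median of 14. PSMC4 does not overlap between occipital and prefrontal cortex, PSMF1 is highest in hippocampus, and the high PSMA2 point at 21040 is the occipital library of animal 40.

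In mean level 29 of 42 genes followed the order occipital, hippocampus, prefrontal. Against occipital cortex 11 of 42 genes were lower (26.2%, against 22.6% of identifiers) and 1 was higher (2.38%, against 28.1%). On equal totals 19 were lower (45.2%, against 25.2% of identifiers) and by DESeq2 18 (42.9%, against 26.4%), each with 1 higher. PSMB8 was lower by -0.47 (adjusted p = 0.000127), PSMC4 by -0.46 (adjusted p = 2.16e-06), PSMA2 by -0.42 (adjusted p = 0.00516) and PSMD5 by -0.35 (adjusted p = 0.0003, limma). PSMF1 was the higher one: it ranged from 5237 to 9731 in hippocampus (median 7422), 4413 to 6964 in occipital cortex (median 5393) and 5082 to 6706 in prefrontal cortex (median 6087). The groups overlapped, and the differences were 0.39 ± 0.07 against occipital (adjusted p = 4.43e-05) and 0.26 ± 0.07 against prefrontal cortex (adjusted p = 0.00466, limma), each in 12 of 14 animals. PSMA6 was lost without the occipital library of animal 40 (limma, adjusted p = 0.0731). PSMA6 and PSMC6 were lost without the hippocampus libraries of animals 33 and 40 (0.118 and 0.081). PSMD3 was lost without those of animals 30 and 43 (0.0504). In that last fit 35.7% of the 42 genes were lower and 7.14% higher, against 26.1% and 30.2% of identifiers.

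Against prefrontal cortex 11 of 42 genes were higher in hippocampus (26.2%, against 20.9% of identifiers) and 2 lower (4.76%, against 22.6%). Without the hippocampus libraries of animals 30 and 43, 35.7% were higher and 4.76% lower, against 25.7% and 27.6% of identifiers. In the fit with all libraries the beta-ring gene PSMB2 had the largest difference, 0.46 (limma, adjusted p = 0.000131). The catalytic PSMB5 had 0.40 (adjusted p = 0.000474). Of the beta ring 4 of 6 genes passed and of the alpha ring 0 of 7, a contrast between rings that was not tested. PSMB1 and PSMB6 were lost on equal totals (0.0542 and 0.0553) and with no block (0.068 and 0.0589). PSMB9 gave 0.46 (adjusted p = 0.00428, limma) and PSMB8 0.28 (adjusted p = 0.0176), and the call of PSMB8 was lost without the hippocampus libraries of animals 33 and 40 (0.0765), on equal totals (0.0625) and with no block (0.0554). PSME4, a nuclear activator, was lower by -0.34 (adjusted p = 0.0313), which was lost without the same 2 libraries (0.0757) and with no block (0.0808). PSMC3IP was lower by -0.37 (adjusted p = 0.00377). Microglial markers were higher in hippocampus for 10 of 10 genes against either cortex, with medians of 1.03 and 0.78, and their part in the values of PSMB8 and PSMB9 was not tested.

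Correlations between proteasome genes over animals are given as a description. After the group mean was taken out, the median pairwise Pearson r over the 14 libraries of a region was 0.42 in amygdala (48 genes) and, over 42 genes each, 0.37 in hippocampus, 0.62 for the occipital and 0.44 for the prefrontal cortex, against -0.002 to 0.004 over all identifiers. Alpha-ring genes reached 0.73, 0.79, 0.93 and 0.68 in that order, and beta-ring genes 0.82, 0.80, 0.92 and 0.78. For the ATPases the values were 0.68, -0.12, 0.54 and 0.54 in the same order. The other 19S subunits gave 0.40, 0.26, 0.05 (0.19 without animal 40) and 0.54. PSMB8 tracked PSMB9 at 0.77 to 0.81 in the 4 regions, but the pair's median with the other genes was 0.21 to 0.52. PSME1 tracked PSME2 at 0.65 to 0.94. Without animal 40 the occipital value over 42 genes was 0.50. The values that enter a correlation share their library, its depth and its scaling.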

How the data were processed

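The 56 libraries were poly(A)-selected, strand-specific mRNA libraries, per the labels' protocols. Per the submitters' processing notes, reads were trimmed with Trimmomatic, aligned with STAR 2.7.3a to Mmul_10 and normalized with edgeR 3.28.0. The counting program and its strand setting are not given in the sources used here. The deposited values are normalized read signal made by the authors, with an upper quartile of 2818.9375 in every library. Undoing that scale gave whole reads for 100% of values (within 0.01 reads).

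Values were tested as log2(value + 1), so a fold change is on that scale and understates low genes. Identifiers with a mean of at least 10 were fitted with limma 3.58.1 (R 4.3.3, variance trended on mean level). Tests were two-sided, with Benjamini-Hochberg adjustment over all identifiers and a threshold of 0.05. Region pairs had the animal as a fixed block, since the labels tie the 4 libraries of an animal. The separate treatment fit of all 4 regions, given as the replicate block alternative, used a consensus correlation of 0.184. On recovered reads in amygdala, edgeR 4.0.16 called 1018 identifiers and DESeq2 1.42.0 called 1753, against 1112 by limma. The fits were also run on simulated data that drew each gene independently. Variation shared between genes was left out there, so those runs cannot tell how it moves the calls.

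Members, gene lists and marker lists were chosen with earlier results of these data known. Named genes are those called in any fit, at most 30 by size, the inducible and activator genes, and in each role the gene with the highest mean and that with the largest amygdala difference. Of the 2 pathway lists, the genes called in amygdala were named, at most 10, and NFE2L1 was added after its values were seen, as were PSMB7, PSMD1, PSMD2, PSMD9, PSMD11 and PSME3IP1 to complete a role. No sequence is printed. Levels were not compared between genes, because no transcript lengths were used.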

Additional observations from a re-analysis of the deposited data

Results flagged for a closer look

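In 16 of 194 groups of 7 libraries the highest or lowest library lay far from the other 6 by Dixon's criterion. These 194 are only part of the groups of the proteasome genes, so 16 of 194 is not a rate over all of them. Chance flags about 1 in 20 groups, and the genes of a library are not independent of each other. Of the 16, 10 came from the occipital library of animal 40 (HT). There PSMA1 was 21583 (group median 9857), PSMA2 21040 (7191), PSMA4 21842 (6627), PSMA6 16975 (6253), PSMB1 19134 (10172), PSMC6 15863 (5768), PSMD6 8601 (4036), PSMD13 30028 (16237), PSMD14 23362 (8162) and PSMG2 3963 (1851). The amygdala library of animal 32 (OvH) gave 4: PSMB10 at 9108.5 (median 4243), PSMB9 at 880 (368), PSMC5 at 23874 (11862) and PSME2 at 2806 (1304). The prefrontal library of animal 32 gave PSMB2 at 5913 (median 4409). The last was the hippocampus library of animal 30 (OvH), low in PSMC3IP at 722 (median 1230.5).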

How the results depend on the processing

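The limits are these: 7 animals per group, names that can be wrong outside the amygdala, and an unstated counting step. In amygdala 7 genes were called, and 11 on equal totals, 6 by edgeR, 7 by DESeq2, 8 with a replicate block, 0 with the myelin or the ribosomal covariate, and 5 to 16 when 1 animal was left out. The first 5 counts are 14.6%, 22.9%, 12.5%, 14.6% and 16.7% of the 48 genes. Over all identifiers the shares were 6.89%, 10.1%, 6.31%, 10.9% and 7.69%. With 1 animal left out 10.4% to 33.3% of the 48 genes were called, against 3.4% to 14.6% of all identifiers. For the difference of effects the 0 calls became 2 on equal totals, 1 with no replicate block, 8 without the occipital library of animal 40, and 0 to 16 when 1 animal was left out. For hippocampus against occipital cortex the 12 calls became 20 on equal totals, 17 by edgeR, 19 by DESeq2 and 12 with no replicate block. In these fits 28.6% to 47.6% of the 42 genes were called, against 44.2% to 53.2% of all identifiers. Without the hippocampus libraries of animals 30 and 43 the share was 42.9%, against 56.3%. The replicate block moved no other count by over 1.5 times. The treatment counts of 0 in hippocampus, both cortices and their mean stayed 0 under every alternative run.

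Amygdala differences that crossed 0 were, with the ribosomal covariate, PSMB3 (-0.14), PSMB10 (-0.40), PSMB4 (-0.46), PSMB8 (-0.011) and PSMD13 (-0.0078), on equal totals PSMB8 (-0.12) and PSMG1 (-0.21), by edgeR PSMB8 (-0.056) and PSMG1 (-0.065), and with the myelin covariate PSMG1 (-0.043). With 1 animal left out PSMC5 ran from -0.064 to 0.15 and PSMG1 from -0.054 to 0.15. The cause was not tested. A pseudocount of 8, no filter and a filter at a mean of 100 moved no count by over 1.5 times. The alternatives on the libraries of animals 30, 33, 40 and 43 for the difference of effects and region pairs, and on the occipital library of animal 40, were chosen after seeing the data.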
